A study of Rattus norvegicus with 30 samples.

Results

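Promoter capture in the thalamus was compared with that in the hippocampus of the same 10 rats. The members were the promoter windows whose Ensembl gene identifier had a single set of counts in the thalamus and in the hippocampus table. These were 19763 of the 20196 identifiers, measured in 20 of the 30 libraries of the series. All rats were adult male Sprague-Dawley rats, and tissue was taken 3 months after the operation. Rats 6 to 10 had traumatic brain injury (TBI) by lateral fluid percussion over the left parietal lobe. Rats 1 to 5 were sham-operated controls, which had the same anaesthesia and craniectomy without the impact. Each library came from 1 rat. According to the extraction notes, the tissue labelled ipsilateral hippocampus was dissected as dentate gyrus with the adjoining part of CA3. The paper describes it as hippocampus with the dentate gyrus included. These descriptions differ, and by the extraction notes the tissue does not represent the whole hippocampus.

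Methyl-binding domain sequencing (MBD-seq) enriches sheared DNA on a domain with affinity for methylated CpG dinucleotides and sequences what is retained. The count of a promoter then depends on its methylation, its CpG density and the efficiency of the capture, and it is not a percentage of methylation. DNA methylation at promoters is a mark that differs between cell types and is often associated with silenced genes. The dentate gyrus is built mainly of densely packed granule cells, whereas the thalamus holds relay neurons among many myelinating glial cells. In pieces of whole tissue, a different mixture of cells and a different methylation per cell cannot be told apart. The tissue also cannot be told apart from the instrument if that differed, since the sample labels name the Genome Analyzer IIx for all libraries while the study's methods, by reference to RNA-sequencing, describe a HiSeq for the thalamus.

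The files pair the identifiers with no gene symbol, so the genes behind the promoters are given here by identifier only and the tissue labels could not be checked against marker genes. Total promoter counts ranged from 2675177 to 4227800 (median 3198544) in the thalamus and from 1430875 to 2440662 (median 2029358) in the hippocampus, and the thalamus was deeper in 10 of 10 rats (exact two-sided sign-flip permutation p = 0.00195, adjusted p = 0.00975 over 5 library measures, the smallest p that 10 pairs can give). The 5% of promoters with the most counts held 25.3 to 50.9% (median 29.6%) of the counts in the thalamus and 27.3 to 50.3% (median 39.3%) in the hippocampus, with the thalamus lower in 8 of 10 rats (exact permutation p = 0.00781, adjusted p = 0.013). The share of promoters with no count was 0.116 to 0.875% and 0.081 to 0.658%, respectively (exact permutation p = 0.623). The 10 promoters with the highest mean capture alone held 8.68 to 35.4% of the thalamus and 8.23 to 30.2% of the hippocampus counts.

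The library labelled thalamus rat 6 and the library labelled hippocampus rat 5 stood apart from the others of their tissue. Pearson's r across promoters was computed between each library and the mean log2 profile of each tissue over the 8 other rats, a description without a test. In rats 1 to 4 and 7 to 10, r with the own tissue was 0.966 to 0.98 for the thalamus and 0.939 to 0.973 for the hippocampus, and r with the opposite tissue was 0.806 to 0.844 and 0.783 to 0.863. Thalamus rat 6 had r = 0.921 with the thalamus and 0.913 with the hippocampus mean. Hippocampus rat 5 had r = 0.849 with the hippocampus, 0.918 with the thalamus and 0.952 with the cortex mean, so that its profile was nearest to that of a tissue other than its label. The remaining libraries of the comparison were nearest to their own tissue, thalamus rat 6 included. Results are therefore given with and without these libraries.

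**Figure D1:**
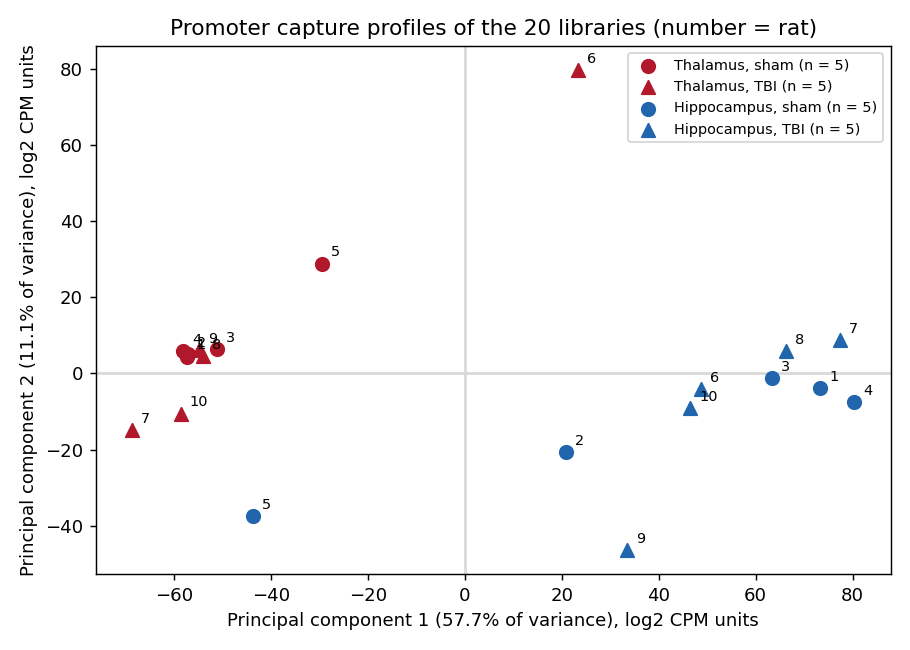
Principal components of the log2 CPM (counts scaled to library size) of the tested promoters; each point is 1 library, the colour gives the tissue, the shape the treatment and the number the rat. Component 1 holds 57.7% and component 2 holds 11.1% of the variance, with hippocampus rat 5 on the side of the thalamus libraries and thalamus rat 6 within the range of the other hippocampus libraries on component 1.

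The first comparison asked which promoters were captured differently in the thalamus and the hippocampus. Of 19560 tested promoters, 5590 were higher in the thalamus and 5654 were lower (edgeR quasi-likelihood test with rat as block, adjusted p under 0.05). These were 28.6 and 28.9% of the tested promoters, 57.5% in all. A difference of at least 2-fold was found for 1428 promoters (7.3%) that were higher and 1104 (5.64%) that were lower. The median log2 fold change (thalamus minus hippocampus) was 0.74 among the promoters called higher and −0.65 among those called lower, and the median standard error over all promoters was 0.15. The median absolute difference of the tissue means was 0.444 on the log2 scale, against a median SD within the tissue of 0.261 in the thalamus and 0.373 in the hippocampus.

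The split of directions depended on the scaling. With library totals in place of TMM (trimmed mean of M-values), 9047 promoters were called higher and 3149 lower, and the median log2 fold change of all promoters moved by 0.316, from 0.03 to 0.34. All differences below are thus relative to the bulk of the promoters, as TMM sets it. Without hippocampus rat 5 and thalamus rat 6, 7464 of 19580 promoters were higher and 6302 lower. The split of the differences of at least 2-fold moved further. Library totals gave 3335 higher and 469 lower, loess offsets gave 631 and 1055, and leaving out these 2 libraries gave 2767 and 1541.

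The tails of the distribution were unequal. A log2 fold change of −3 or below was found for 53 promoters, all of which were called lower, and one of 3 or above was found for 0 promoters (largest log2 fold change 2.71, smallest −7.28). Between a log2 fold change of 2 and 3 lay 46 promoters, and between −3 and −2 lay 72. A mean below 1 CPM (counts scaled to library size with TMM) in the thalamus with at least 10 CPM in the hippocampus was seen for 3 promoters, and the opposite for 0. The tails also depended on the scaling. With library totals, 159 promoters lay between 2 and 3 and 52 between −3 and −2, with 1 at 3 or above and 39 at −3 or below. Loess offsets gave 30 and 96, with 0 at 3 or above and 52 at −3 or below. The upper tail depended as well on the libraries that stood apart. Without hippocampus rat 5 and thalamus rat 6, 13 promoters had a log2 fold change of 3 or above (largest 3.42) and 227 lay between 2 and 3, while 57 had −3 or below (smallest −7.30) and 103 lay between −3 and −2.

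In single rats, 1495 of the 19560 tested promoters were higher in the thalamus in 10 of 10 rats and 1626 were lower in 10 of 10. Without any overlap between the 10 thalamus and the 10 hippocampus libraries, 401 promoters were higher and 493 lower (4.57% of the tested promoters). In the 8 rats other than 5 and 6, 2872 were higher and 3537 lower without overlap (32.8%).

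The direction of the difference changed with the capture level under TMM scaling. When the promoters were split into deciles by their mean level over the 20 libraries, 39.3% of decile 2 (9.31 to 13.9 CPM) were higher in the thalamus and 8.03% lower, with a median log2 fold change of 0.46. In decile 10 (from 86.7 CPM), 3.68% were higher and 79.4% lower, with a median of −0.65. Decile 1, up to 9.3 CPM, was balanced at 14.1% higher and 15.3% lower. The median fell from each decile to the next between decile 2 and decile 10. The same contrast was seen in rats that share no library. The medians of deciles 2 and 10 were 0.45 and −0.58 in the sham rats and 0.58 and −0.63 in the TBI rats. Without hippocampus rat 5 and thalamus rat 6 they were 0.70 and −0.79. With library totals they were 0.79 and −0.33. With loess offsets, which are built to remove trends with level, they were 0.09 and −0.02, and 10238 promoters were still called (5146 higher and 5092 lower). A filter of at least 10 counts in every library left 202 of the 1956 promoters of decile 2. The median of decile 2 then turned to −0.25, with 5.45% higher and 35.6% lower, and that of decile 10 was −0.52. In the shallower hippocampus libraries, 10 counts are 4.78 to 9.46 CPM, against 2.52 to 3.74 CPM in the thalamus. The filter thus favours promoters of decile 2 that are high in the hippocampus, and the turn cannot be told apart from this choice. The share of counts in the top 5% of promoters, given above, was also lower in the thalamus, and its part in the change of direction with level was not tested.

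**Figure D2:**
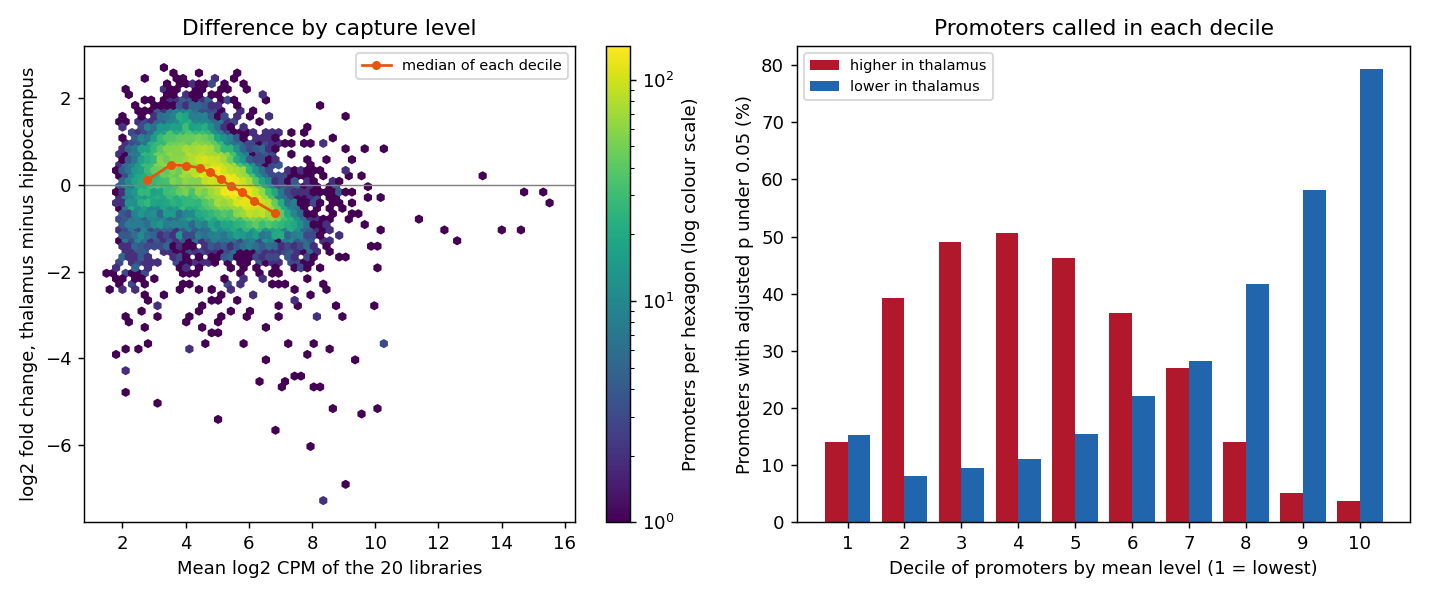
Left, log2 fold change (thalamus minus hippocampus) of each tested promoter against its mean log2 CPM, with the median of each decile of promoters by level. Right, the percentage of promoters called higher and lower in each decile. Promoters higher in the thalamus reach 50.6% in decile 4, and promoters lower in the thalamus reach 79.4% in decile 10.

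The same comparison was then made separately in the sham and in the TBI rats, which share no library. In the sham rats, 4350 of 19127 promoters were called (22.7%, 2048 higher and 2302 lower in the thalamus). In the TBI rats, 8363 of 19225 were called (43.5%, 4391 higher and 3972 lower). Without hippocampus rat 5, the sham count was 11103 of 19300 (5901 higher and 5202 lower). Without thalamus rat 6, the TBI count was 10787 of 19370 (5319 higher and 5468 lower). The sham count was 723, 1014, 382 and 569 without rats 1, 2, 3 and 4, respectively, while hippocampus rat 5 was kept. The TBI count was 5315 without rat 8.

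Of 19000 promoters tested in both, 88.8% had the same sign in the sham and in the TBI rats. Of the 4334 called in the sham rats, 4326 (99.8%) had the same sign in the TBI rats and 3911 were also called there. The 3911 promoters were 90.2% of those called in the sham rats and 47% of the 8324 called in the TBI rats, with 1794 higher and 2117 lower. Called in opposite directions were 0 promoters. Without hippocampus rat 5 and thalamus rat 6, 9215 of the 19222 promoters tested in both were called in the same direction and 0 in opposite directions. Between the rat groups, Pearson's r of the log2 fold changes was 0.923 and Spearman's rho 0.919 (across promoters, which are not independent replicates).

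**Figure D3:**
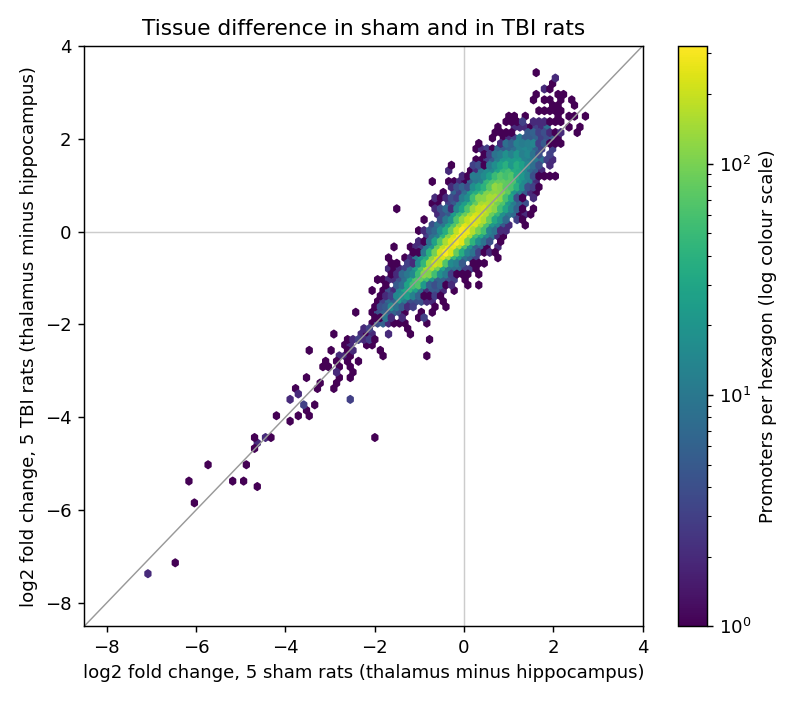
Log2 fold change (thalamus minus hippocampus) of each promoter in the 5 sham rats and in the 5 TBI rats, with the line of equal values; the colour gives the number of promoters. The 19000 promoters lie along the line, with a median absolute difference of 0.154 between the groups.

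The interaction of tissue and TBI asked whether the tissue difference itself differed between sham and TBI rats. Of 19560 promoters, 0 (0%) were called by the quasi-likelihood test at an adjusted p under 0.05, whereas at an unadjusted p under 0.05 there were 159 (100 with a more positive and 59 with a more negative thalamus minus hippocampus difference in the TBI rats). DESeq2 and limma voom also called 0, with 80 and 560 promoters at an unadjusted p under 0.05. Each of these counts is below 0.05 of the 19560 promoters, the share that this threshold gives where nothing differs. The interaction test was thus conservative here, and its 0 calls do not show that the tissue difference was equal in the rat groups. The median standard error of the interaction was 0.313 on the log2 scale. Differences between the rat groups of that size, and larger ones, were thus not detectable for a typical promoter. An absolute interaction log2 of at least 1 was estimated for 214 promoters, and 0 of them were called.

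For a pair of promoters in each direction, the values of all libraries are given. They were the promoter with the smallest p and the one with the largest fold change among those with the same direction in rats 1 to 4 and 7 to 10. That they were called follows from this choice. ENSRNOG00000027365 had the largest difference of all. Its capture was 2.68 to 6.5 CPM (median 3.65) in the thalamus and 238 to 996 CPM (median 703) in the hippocampus. The groups did not overlap. Thalamus rat 6 was the lowest thalamus library, and hippocampus rat 5 at 238 CPM was the lowest hippocampus library, followed by rat 2 at 294 CPM. The mean was 4.08 ± 1.33 CPM in the thalamus and 648 ± 244 CPM in the hippocampus (SD, n = 10 rats), with a log2 fold change of −7.28 (SE 0.272, edgeR adjusted p = 7.12e-13). In sham rats alone the log2 fold change was −7.07, and in TBI rats alone −7.37. Another identifier had the same counts in all libraries, so that these are 2 names for 1 set of reads.

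ENSRNOG00000002628 had the smallest p of all promoters. Its capture was 0.319 to 2.64 CPM (median 1.86) in the thalamus and 27.6 to 90.4 CPM (median 67) in the hippocampus. All thalamus libraries were below all hippocampus libraries, with rats 5 and 6 lowest in the thalamus at 0.319 and 0.383 CPM and rat 5 lowest in the hippocampus. The mean was 1.57 ± 0.784 CPM and 66.8 ± 19.5 CPM (SD, n = 10 rats), and the log2 fold change was −5.37 (SE 0.198, edgeR adjusted p = 7.12e-13), or 41.3-fold. Sham rats alone gave −5.71 and TBI rats alone −5.02.

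Among promoters that were higher in the thalamus, ENSRNOG00000009063 had the smallest p. Its capture was 39.4 to 65.2 CPM (median 59) in the thalamus and 5.91 to 17.2 CPM (median 10.6) in the hippocampus. The groups did not overlap, and thalamus rat 6 was the lowest thalamus library while hippocampus rat 5, at 11.1 CPM, lay in the middle of its tissue. The mean was 56.6 ± 8.06 CPM and 10.9 ± 3.14 CPM (SD, n = 10 rats), with a log2 fold change of 2.33 (SE 0.13, edgeR adjusted p = 2.02e-10), or 5.03-fold. The value in sham rats alone was 2.3, and in TBI rats alone 2.44.

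ENSRNOG00000029153 had the largest fold change upwards, at a low level. Its capture was 4.59 to 20.5 CPM (median 14.9) in the thalamus and 0 to 10.6 CPM (median 1.21) in the hippocampus. The groups overlapped through 2 libraries, thalamus rat 6 at 4.59 and hippocampus rat 5 at 10.6 CPM. The other thalamus libraries had at least 13.2 CPM and the other hippocampus libraries at most 3.64 CPM. The log2 fold change was 2.71 (SE 0.371, edgeR adjusted p = 1.79e-05), and 3.26 without these 2 libraries. It was 2.53 in the sham rats, and the promoter was not tested in the TBI rats alone, where too few libraries reached the filter. There it had 58 to 72 counts in thalamus rats 7 to 10, 12 in thalamus rat 6 and 1 to 7 in the hippocampus libraries.

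The perilesional cortex of the same rats gave values side by side. The cortex comparisons share libraries with the one above and are not independent of it. ENSRNOG00000027365 had 75.2 to 711 CPM (median 201) in the cortex, and ENSRNOG00000002628 had 15 to 76.9 CPM (median 26.2), with cortex rats 4 and 6 highest for each. These 2 cortex libraries had profiles nearest to the hippocampus mean. In the other 8, the ranges were 75.2 to 215 and 15 to 33.7 CPM. For ENSRNOG00000027365, the log2 fold change against the cortex was −5.67 (SE 0.276) for the thalamus and 1.57 (SE 0.315) for the hippocampus. For ENSRNOG00000002628 it was −4.18 (SE 0.257) and 1.15 (SE 0.186). The cortex was thus between the tissues for this pair, and the edgeR adjusted p of these 4 differences was at most 0.000434. ENSRNOG00000009063 had 12.1 to 25.4 CPM in the cortex, below all thalamus libraries, with a log2 fold change of 1.56 (SE 0.11) for the thalamus and −0.79 (SE 0.198) for the hippocampus against the cortex. ENSRNOG00000029153 had 2.25 to 13.8 CPM, and the log2 fold changes were 0.65 (SE 0.191) and −2.10 (SE 0.389).

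**Figure D4:**
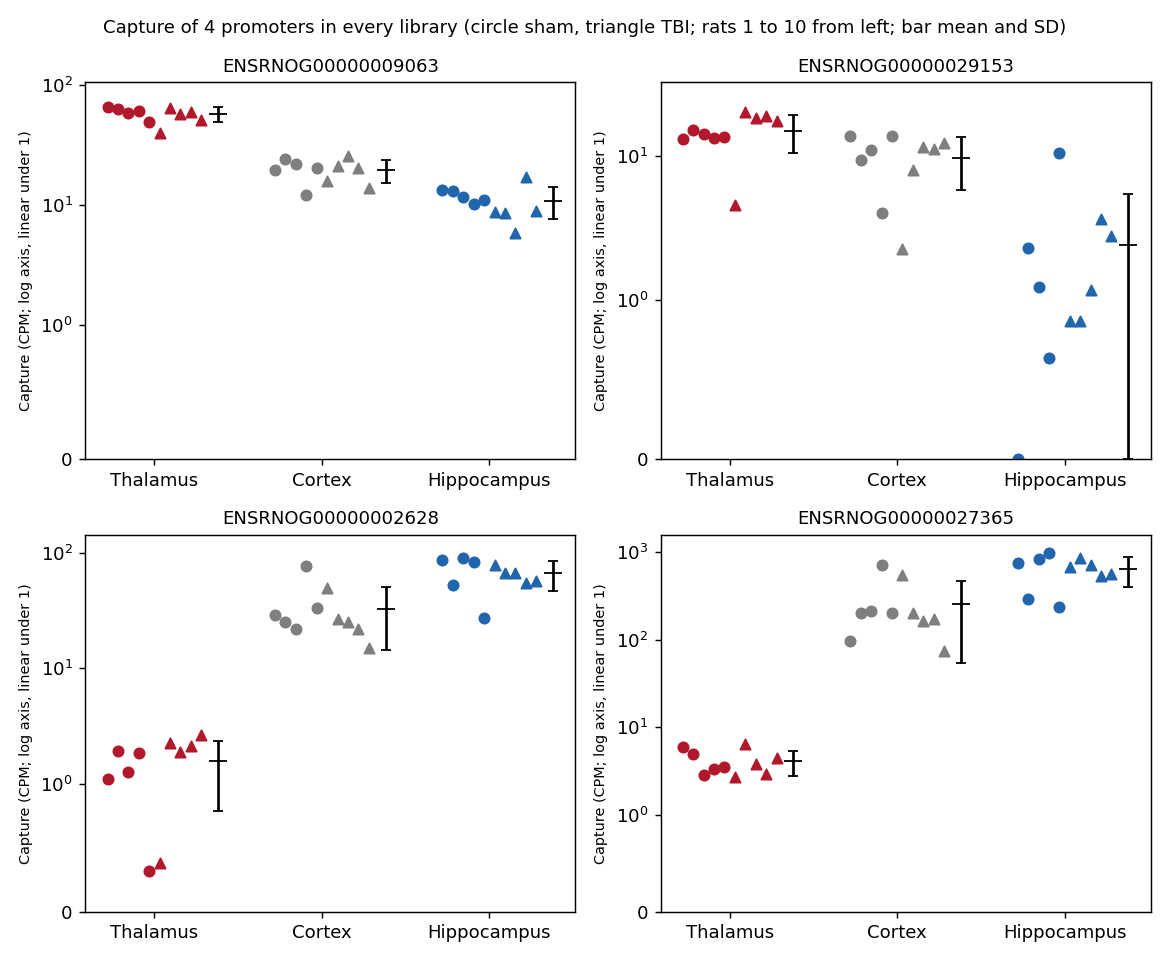
Capture of 4 promoters in CPM in every library of the thalamus, cortex and hippocampus (n = 10 rats each), on an axis that is logarithmic above 1 and linear below; bars give the mean and SD. For ENSRNOG00000027365 all thalamus libraries lie at or below 6.5 and all hippocampus libraries at or above 238 CPM.

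To see how whole sets of promoters behaved in rats 5 and 6, classes were set by the fold change in the 8 other rats, in which 13666 of 19558 promoters were called. The classes held 61 promoters that were 8-fold or more lower in the thalamus, 1656 that were 2- to 8-fold lower, 2353 that were 2- to 4-fold higher and 205 that were 4-fold or more higher. The limits are arbitrary, since the nearest promoter outside the first class had a log2 fold change of −2.98. The 61 promoters were 59 distinct sets of counts. In each library, the position of a promoter was scaled so that 0 is the hippocampus and 1 the thalamus mean of the 8 rats, and the median over the class was taken. The values of the 8 rats only describe the choice, whereas those of rats 5 and 6 did not enter it.

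In the class that was 8-fold or more lower, thalamus rats 5 and 6 had a median position of 1.02 and 1.08. The 8 other thalamus libraries had 0.966 to 1.02, so that thalamus rat 6 lay slightly beyond them, away from the hippocampus. Hippocampus rat 6 had 0.0188 and hippocampus rat 5 had 0.337. Thalamus rat 6 was below hippocampus rat 6 at 61 of 61 promoters, and thalamus rat 5 was below hippocampus rat 5 at 60 of 61. The median capture of the class was 4.98 CPM in thalamus rat 6 and 5.42 CPM in thalamus rat 5, against 7.21 to 10.1 CPM in the other thalamus libraries. It was 56.8 CPM in hippocampus rat 5 and 182 CPM in hippocampus rat 6, against 105 to 223 CPM in the other hippocampus libraries. These 61 promoters held 0.145 to 0.194% of the counts of the thalamus libraries. They held 1.36 to 6.13% of the hippocampus counts in 8 rats, 1.74% in rat 6 and 1.11% in rat 5.

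In the other classes, the direction was kept in rat 6 at 58.1 to 81.7% of the promoters. In rat 5 it was kept at 50.5% in the 2- to 8-fold lower class and at only 26 and 28.8% in the higher classes. Thalamus rat 6 had a median position of 0.395 in the 2- to 8-fold lower class, 0.228 in the 2- to 4-fold higher class and 0.248 in the 4-fold or more higher class. Hippocampus rat 5 had 0.784, 0.973 and 0.932, and thalamus rat 5 had 0.782, 0.731 and 0.791. Hippocampus rat 6, with 0.115, 0.132 and 0.112, lay within the range of the 8 other hippocampus libraries. In the 2- to 8-fold lower class, the thalamus was lower than the hippocampus at 836 of 1656 promoters in rat 5 and at 1353 of 1656 in rat 6. In rat 5, the thalamus was higher than the hippocampus at 59 of the 205 promoters of the class with the largest increases and at 611 of the 2353 promoters of the next. In rat 6, it was higher at 142 of 205 and at 1367 of 2353. Over all 13666 promoters called in the 8 rats, the direction was the same in rat 5 for 39.1% and in rat 6 for 62.2%, beside 41.3 and 59% of all promoters tested.

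**Figure D5:**
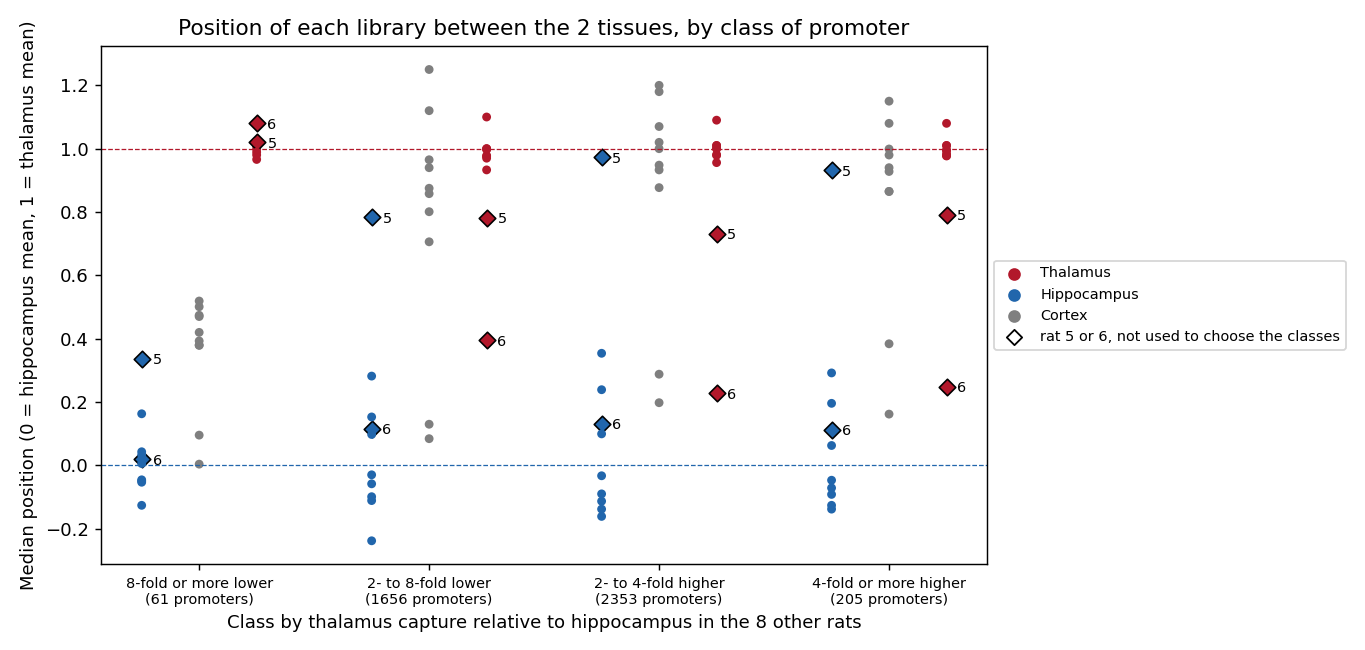
Median position of each library between the hippocampus mean (0) and the thalamus mean (1) of 8 rats, for 4 classes of promoters; each point is 1 library and diamonds are the libraries of rats 5 and 6. In the class that was 8-fold or more lower, thalamus rat 6 lies at 1.08, whereas in the other classes it lies between 0.228 and 0.395.

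The cortex also took a different position in the classes. Its libraries had a median position of 0.406 in the class that was 8-fold or more lower, with its median level between the tissues at 61 of 61 promoters. The level was between the tissues at 1136 of 1656, 1357 of 2353 and 142 of 205 promoters of the other classes. The first class was chosen for a wide gap between the tissues, which makes a level between them more likely. In the 2- to 8-fold lower class, the median position was 0.866, and it was 0.974 and 0.934 in the 2 higher classes, near the thalamus. Without cortex rats 4 and 6, the ranges were 0.379 to 0.519, 0.706 to 1.25, 0.877 to 1.20 and 0.865 to 1.15. Hippocampus rat 5 lay within the ranges of these 8 cortex libraries in 3 classes and just below the range in the first.

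Counts of gene bodies and exons, taken from the same libraries, gave a further readout with far fewer reads. Promoters held 96.3 to 98.4% of the counts of promoters and gene bodies together. Of 1281 tested gene bodies, 493 (38.5%) were called, 282 higher and 211 lower in the thalamus, with a median log2 fold change of −0.10 over all. With library totals, 229 were higher and 358 lower, so that the balance of directions turned with the scaling. Of 9501 tested exons, 1404 (14.8%) were called, 924 higher and 480 lower. With library totals it was 698 and 1174.

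Of the 61 promoters that were 8-fold or more lower, 4 had a tested gene body, of which 3 were called higher and 0 lower in the thalamus. Of the 1656 promoters of the 2- to 8-fold lower class, 216 had a tested gene body. Their median log2 fold change was −0.36, with 50 called lower and 5 higher. Of the 2353 promoters of the 2- to 4-fold higher class, 22 had a tested gene body. Of these, 18 were called higher and 1 lower (median 2.04). Of the 205 promoters of the 4-fold or more higher class, 6 had a tested gene body, with 5 called higher and 0 lower (median 2.63). A gene body can pass the filter through the tissue where it is high. These class counts are thus no independent check on the direction of the promoters. In the fit of all 10 rats, 617 tested gene bodies had a tested promoter, 105 being called higher and 99 lower. Of these 617, the promoter was called for 497, and promoter and gene body had the same sign for 66%, called or not. Promoter and gene body were both called for 152, with the same direction for 122 and the opposite for 30. The 152 are no larger a share of the 204 called gene bodies than the 497 are of the 617. Of the 105, 35 had a promoter called higher and 28 one called lower. Of the 99, 87 had one called lower and 2 one called higher. Promoters with a tested gene body lay mostly in the lower classes, with 216 in the 2- to 8-fold lower and 22 in the 2- to 4-fold higher class. The 87 of 99 cannot be told apart from this lean, since the directions of all 617 promoters were not counted. With library totals, the direction was the same for 185 and opposite for 20, beside the same sign for 73.6% of the 617. Promoter and gene body windows of neighbouring or overlapping genes can hold the same reads, which was not tested.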

How the data were processed

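DNA of the thalamus and hippocampus of 5 sham and 5 TBI rats was measured by MBD-seq. Reads were aligned by the authors to Rnor_5.0 with STAR, splicing being disabled, and tallied over promoters, exons and gene bodies with Repitools in R 3.1.0. The deposited values are whole-number counts without normalization. Coordinates and gene symbols of the windows were not used here. The 433 identifiers with several different windows, or with none matching, were left out.

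Low rows were removed with edgeR 4.0.16 (filterByExpr, minimum count 10 and minimum total 15) in R 4.3.3, and libraries were scaled by TMM. Tissue was tested by the quasi-likelihood F test with rat as block and Benjamini-Hochberg adjustment, and CPM and log2 CPM (prior count 2) were computed for display, those of single promoters and classes with TMM factors over all 30 libraries, cortex included. The standard error is the absolute log2 fold change divided by the square root of F. Equal rat numbers in the labels were taken as the same animal. The correlation of their deviations from the group means was −0.445 to 0.241 (median −0.0553), over 0.1 in 3 of 10 rats. Library measures were compared by exact two-sided sign-flip permutation tests. The fit was tested on simulated counts, and replicates of a group differed by more than sampling noise (chi-square of at least 2.3 per degree of freedom).

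Alternatives were DESeq2 1.42.0, library totals, loess offsets, other filters, limma 3.58.1 voom with sample quality weights, thinned counts, no block, libraries or rats left out, a 2-fold threshold, the first of several windows, and, chosen after seeing the data, rows with the same counts kept once, exons, and the counts of promoters without overlap or called in both rat groups. Members, lists and tests were chosen with earlier results of these data known. Because identifiers were not paired with symbols, gene lists, cell type markers and an adjustment for CpG content were not run, and of the promoters with an adjusted p under 0.05, a mean of at least 20 counts and the same direction in rats 1 to 4 and 7 to 10, those with the smallest p and the largest fold change in each direction were named.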

Additional observations from a re-analysis of the deposited data

Results flagged for a closer look

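In 13 sets of 5 libraries of 1 tissue and treatment, 1 library was far from the other 4 by Dixon's test at its 95% level, which chance passes in about 1 of 20 sets. Of 24 sets of library measures, 5 passed, where chance gives about 1.2, and these sets are not independent. The other flags are 5 on class positions and 3 on named promoters. They were set or chosen with rats 1 to 4 and 7 to 10, whose positions lie near 0 or 1 for that reason, and no chance count applies to them.

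Thalamus rat 6 was the library in 8 of them. Its TMM factor was 0.741 against 1.14 to 1.24 in the other TBI thalamus libraries. The top 5% of promoters held 50.9% of its counts, against 25.3 to 31.7%. It had no count at 0.875% of promoters, against 0.116 to 0.167%. Promoters held 96.3% of its promoter and gene body counts, against 97.5 to 97.8%. Its capture of ENSRNOG00000029153 was 4.59 CPM against 17.6 to 20.5 CPM. Its median position was 0.395 in the 2- to 8-fold lower class, 0.228 in the 2- to 4-fold higher class and 0.248 in the 4-fold or more higher class, against at least 0.97 in the other TBI thalamus libraries. In the class that was 8-fold or more lower it was not flagged, with 1.08 against 0.966 to 1.02 in the other TBI thalamus libraries.

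Thalamus rat 5 had a median position of 0.731 in the 2- to 4-fold higher class and 0.791 in the 4-fold or more higher class, against 0.956 to 1.01 and 0.978 to 1.01 in the other sham thalamus libraries. Hippocampus rat 5 had r = 0.85 with the mean of the other hippocampus libraries, against 0.956 to 0.973, and 10.6 CPM of ENSRNOG00000029153, against 0 to 2.29 CPM. Hippocampus rat 9 had 17.2 CPM of ENSRNOG00000009063, against 5.91 to 8.97 CPM in the other TBI hippocampus libraries.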

How the results depend on the processing

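The number of promoters called in all 10 rats was 8733 to 13766 under the alternatives other than the 2-fold threshold, which left 2532, and 9987 to 12906 without 1 rat. Without the replicate block it was 11643 (5710 higher and 5933 lower), and the unpaired fit called 6309 promoters in the sham rats, 8471 in the TBI rats, 530 gene bodies and 1515 exons. The interaction had 0 calls under every alternative run, with 80 to 560 promoters at an unadjusted p under 0.05. These are below the share of 0.05 that this threshold gives where nothing differs. In the sham rats, voom with sample quality weights called 11153 promoters, leaving out hippocampus rat 5 gave 11103, the 2-fold threshold 1775, and leaving out 1 rat 382 to 10976. In the TBI rats the 2-fold threshold gave 2831 and leaving out 1 rat 5315 to 10789. Promoters called in both rat groups in one direction were 9308 with voom, 9215 without hippocampus rat 5 and thalamus rat 6, and 378 to 7552 without 1 rat. Promoters without overlap were 2236 without hippocampus rat 5, 1692 without thalamus rat 6, 5193 without both and 938 to 2333 without 1 rat. Gene bodies called were 2252 of 19248 with every row of at least 1 count (1949 higher and 303 lower). They were 89 of 143 with at least 10 counts in every library (46 and 43) and 231 of 340 in thinned counts (95 and 136). The 2-fold threshold left 280 of 1281 (200 and 80), beside 493 of 1281 in the main fit. Exons called were 178 of 260 with at least 10 counts in every library (74 higher and 104 lower) and 619 of 1475 in thinned counts (374 and 245). The 2-fold threshold left 832 of 9501 (639 and 193), beside 1404 of 9501 in the main fit. The share called was thus larger under the stricter filter and thinning, though the count was smaller. The stricter filters and thinning test fewer rows by construction, and the cause of the other changes was not tested. The 4 named promoters kept their direction and an adjusted p under 0.05 in all of their 22 or 23 alternatives. They were chosen from these data for a small p or a large fold change, so this is no independent check. Of the 4, only ENSRNOG00000009063 passed the filter of at least 10 counts in every library.

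Depth limits the low end, where 10 counts are 2.52 to 3.74 CPM in the thalamus and 4.78 to 9.46 CPM in the hippocampus libraries. Offsets by CpG content, gene lists and cell type markers were not run for want of symbols.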
